A study of Bos taurus with 24 samples.

Results

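KCNE4, RASL11B and MTSS1 were followed through a lipopolysaccharide (LPS) challenge of bovine dermal fibroblasts (DF), and KCNE4 lost most of its transcript within 2 h in every culture and had regained it by 8 h. The 3 genes were picked by symbol from 27550 rows of the expression tables that carry a gene symbol, and each symbol was found on 1 row. The working description of the set was of genes with an early fall, and KCNE4 was lower at 2 h in all 8 cultures and RASL11B in the 4 Holstein cultures and Angus 3. MTSS1 was not an early-falling gene: its level at 2 h was above the 0 h level in all 4 Angus cultures.

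RNA-Seq was performed on DF grown from skin of 4 Holstein (dairy) and 4 Angus (beef) heifers, and each culture was sampled at 0, 2 and 8 h of exposure to 100 ng/ml LPS, which gave 24 libraries in 6 groups of 4. All cultures were grown in the same serum-containing medium, had been frozen and revived, and duplicate wells were pooled for each RNA sample, so that n counts animals. The 0 h libraries served as the unexposed control, and no unexposed culture was sampled at 2 h or 8 h, so that an effect of LPS and an effect of time or handling cannot be told apart in any change from 0 h. The 2 h values of the breeds combined chose KCNE4, and the breed difference in the 2 h change chose RASL11B and MTSS1, so these values are given as descriptions with no test.

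KCNE4 encodes a single-pass membrane protein of the KCNE family, accessory subunits that bind the pore-forming subunits of voltage-gated potassium channels and change their current. KCNE4 is known mainly as an inhibitory partner, which lowers the current of channels such as KCNQ1 and KCNA3. RASL11B is a small GTPase of the Ras superfamily that lacks the lipid-attachment signal of classical Ras proteins, and its targets are poorly known. MTSS1, also called missing-in-metastasis, carries an I-BAR domain that bends membranes outward and a segment that binds actin monomers, and it has been tied to cell shape, cilia and Hedgehog signalling.

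In the UMD v3.1 bovine build the KCNE4 row spans chromosome 2 from 111987824 to 111991013, 3190 bases on the plus strand. The RASL11B row spans chromosome 6 from 70179364 to 70183823, 4460 bases on the plus strand. The MTSS1 row spans chromosome 14 from 16971033 to 17132800, 161768 bases on the plus strand, and its last 132 bases overlap NDUFB9 on the minus strand. Each row covers a whole gene, introns included. The libraries were not prepared to keep strand, so reads in the shared 132 bases cannot be assigned to MTSS1 or NDUFB9 from the counts. NDUFB9, a subunit of respiratory complex I, was at 40.6 to 55.5 CPM (counts per 1000000 counts of the library) in the 24 libraries and was not past the thresholds in any comparison made here.

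The libraries held 51014538 to 104406293 counts each, so that 1 CPM stood for 51.0 to 104.4 counts, and a count of 0 would have allowed up to 0.029 to 0.059 CPM (3 counts). None of the 3 genes was at 0 in any library. In 4 libraries (Angus 4, Holstein 2 and Holstein 4 at 0 h and Angus 3 at 2 h) reads of the collagen gene COL1A1 were counted differently, at 66.2 to 67.1 bases of coverage for each count compared to 111.8 to 119.0 in the other 20, and values of the 3 genes that rest on these libraries are also given without them. For the 3 genes themselves this figure in the 4 libraries lay within its range in the other 20, at 92.34 to 96.31 compared to 92.0 to 99.06 for KCNE4, 84.46 to 84.96 compared to 81.5 to 92.12 for RASL11B, and 82.53 to 113.5 compared to 80.0 to 115.5 for MTSS1. All 10 fibroblast markers were detected, with a summed level of 37900 to 125000 CPM, while keratinocyte, endothelial, leukocyte and melanocyte markers summed to at most 13.8, 5.21, 5.64 and 3.60 CPM. Adipocyte and Schwann cell markers summed to at most 25.7 and 7.89 CPM. Smooth muscle and pericyte markers summed to 3030 to 8180 CPM, with MYH11, RGS5, CNN1 and ACTA2 detected and DES below the count filter. Fibroblasts in culture also express ACTA2 and CNN1. In these bulk samples, fewer cells of a type and less RNA per cell cannot be told apart.

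KCNE4 was scarce but measurable before the challenge. Its 0 h levels (CPM scaled by the trimmed mean of M-values, TMM) were 4.99, 10.9, 5.73 and 7.05 in Holstein animals 1 to 4. In Angus animals 1 to 4 they were 2.68, 4.05, 16.1 and 1.10 at 0 h. The highest and the lowest culture of all were thus both Angus, 14.7-fold apart, and the Holstein range lay within the Angus range. At 2 h the levels were 0.362, 0.766, 0.340 and 0.483 CPM in Holstein animals 1 to 4. They were 0.314, 0.418, 1.94 and 0.107 CPM in Angus animals 1 to 4. The lowest of these, Angus 4, rested on 10 reads, with an exact 95% Poisson interval of 4.80 to 18.4 reads that covers counting error only. In Holstein every 2 h value lay below every 0 h value, while in Angus the ranges of the hours overlapped because the animals differed so widely, with Angus 3 at 2 h above Angus 4 at 0 h.

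**Figure D1:**
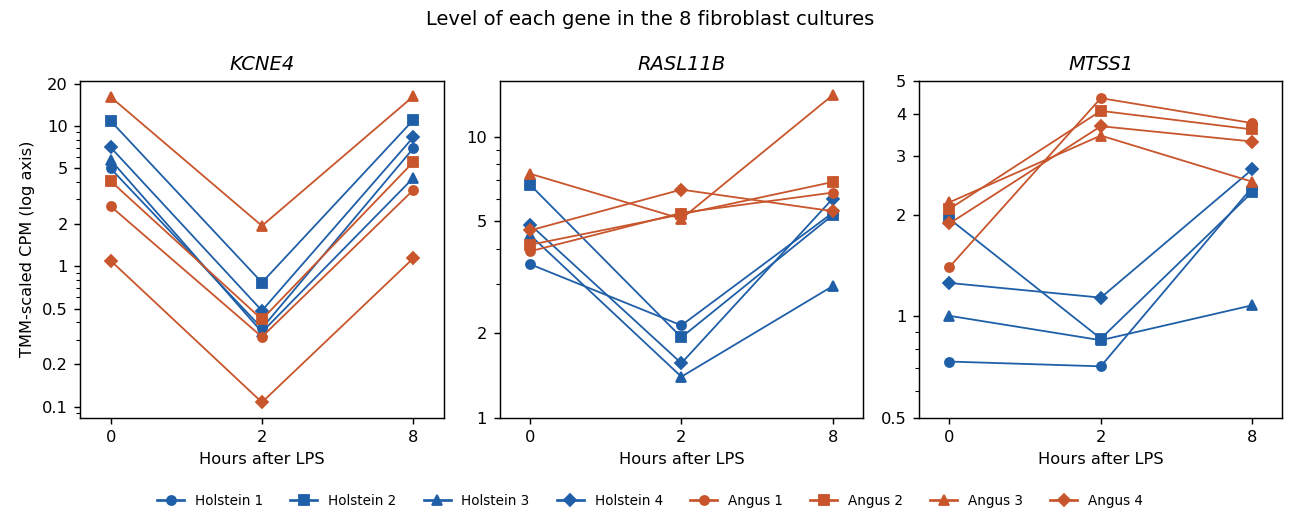
Level of KCNE4, RASL11B and MTSS1 in TMM-scaled CPM (log axis) at 0, 2 and 8 h of LPS, with 1 line for each of the 4 Holstein (blue) and 4 Angus (orange) cultures. All 8 KCNE4 lines dip at 2 h and return, RASL11B dips in the 4 Holstein cultures and in Angus 3, and MTSS1 rises at 2 h in the 4 Angus cultures.

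Set against its own 0 h level, each culture kept a similar small share of KCNE4 at 2 h. The share was 7.26, 7.04, 5.92 and 6.85% in Holstein animals 1 to 4 (6.77 ± 0.589%, SD, n = 4). It was 11.7, 10.3, 12.1 and 9.78% in Angus animals 1 to 4 (11.0 ± 1.09%, SD, n = 4). Across the 8 animals the share varied 2.03-fold, while the starting level varied 14.7-fold. The order of the animals also held in part: Angus 3, Holstein 2 and Holstein 4 were the highest, and Angus 1 and Angus 4 the lowest, at 0, 2 and 8 h alike.

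Fitted over the breeds combined, the log2 fold change of KCNE4 from 0 h to 2 h was -3.47 (SE 0.524), the lowest of all 20157 rows fitted. It was 1 of 568 rows past the thresholds (false discovery rate, FDR, under 0.05, a 2-fold change and an average above 1 CPM), 2.82% of the rows fitted, and this contrast chose it. With each animal compared to itself (the replicate block), the log2 fold change was -3.54 (SE 0.149). Without the 4 libraries with the other COL1A1 counting, KCNE4 no longer passed the low-count filter. With the filter lifted its value was -4.08 (SE 0.456), from 0 h and 2 h libraries of partly different animals.

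The remaining share of KCNE4 at 2 h was smaller in every Holstein culture than in any Angus culture. The 2 h share averaged 6.75% in Holstein and 10.9% in Angus as geometric means, a difference of -0.695 in mean log2 ratio (Holstein minus Angus, SD 0.130 and 0.145, n = 4 per breed). The 2 h values chose KCNE4, and the separation was seen before it was measured, so it is given with no test. The separation of the breeds remained when libraries were scaled by total counts alone, at 5.57 to 7.36% in Holstein and 9.58 to 10.7% in Angus.

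The standard error of the same difference in the fit across all rows depended on whether the animal was in the model. Without the replicate block the breed difference in the KCNE4 change was -0.77 (SE 1.07). With the block it was -0.73 (SE 0.233), under a 2-fold difference and therefore not past the thresholds. Without the 4 libraries, with the low-count filter lifted and no block, the fitted difference turned to the opposite sign, at 1.30 (SE 0.894). That fit set partly different animals against each other: it held Angus 4, Holstein 2 and Holstein 4 at 2 h only and Angus 3 at 0 h only. Counting error is large for such low 2 h counts: the exact 95% interval of the share was 4.57 to 18.7% in Angus 4, 10.2 to 14.2% in Angus 3 and 4.67 to 10.8% in Holstein 1. With the animals behind the 4 libraries left out, 2 animals per breed remained, at 5.92 and 7.26% in Holstein and 10.3 and 11.7% in Angus.

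**Figure D2:**
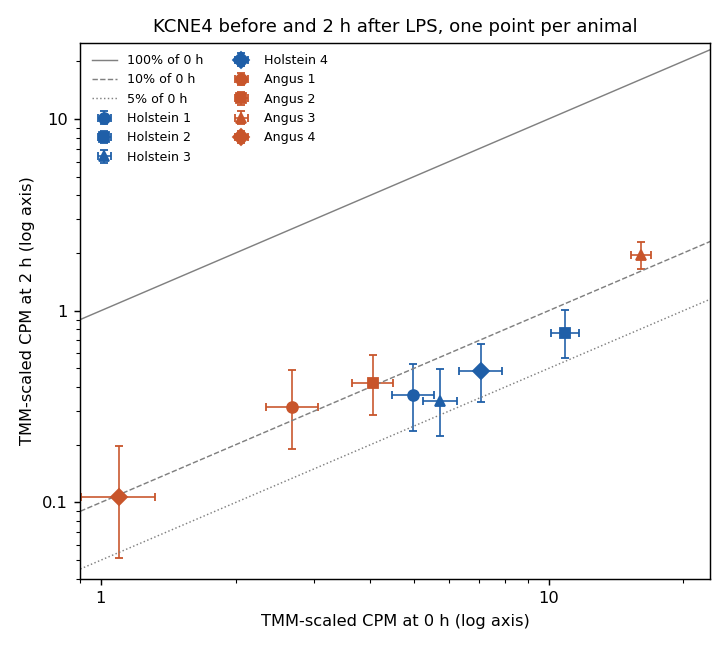
KCNE4 at 2 h plotted against 0 h, both in TMM-scaled CPM on log axes, with 1 point per animal, bars for the exact 95% Poisson interval of the counts, and grey lines at 100, 10 and 5% of the 0 h level. The 4 Holstein points sit between the 5 and 10% lines, and the 4 Angus points lie on or near the 10% line from 1.10 to 16.1 CPM.

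At 8 h KCNE4 was back near its starting level. It measured 6.93, 11.0, 4.26 and 8.32 CPM in Holstein animals 1 to 4. In Angus animals 1 to 4 it measured 3.49, 5.53, 16.3 and 1.14 CPM. These values were 74.3 to 139% of the own 0 h level in Holstein and 101 to 137% in Angus, above 0 h in 7 of 8 cultures, and 8.37-fold to 19.1-fold above the 2 h level. The fitted log2 fold change from 0 h to 8 h was 0.11 (SE 0.492), or 0.09 without the 4 libraries, and the replicate block gave 0.15 (SE 0.106).

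The level of KCNE4 itself was not shown to differ between breeds. The 0 h libraries entered the choice of KCNE4, so its 0 h values and its changes from 0 h are given with no test. At 0 h the log2 fold change (Holstein minus Angus) was 0.26 (SE 0.673), and this rested on 1 animal. Without Angus 3 it was 1.46 (SE 0.435), past the thresholds, as were 1119 of 20104 rows in that fit. In the comparison of all 8 animals 3.83% of all rows were past them. The 0 h fold change of KCNE4 was -0.01 without Holstein 2, -0.09 without Angus 4, and -0.51 (SE 0.732) without the 4 libraries. At 8 h it was 0.21 (SE 0.653, edgeR FDR = 0.871), with an exact permutation p = 0.514 for the difference in mean log2(CPM + 1) of 0.527 (pooled SD 0.954, n = 4 per breed). The breed difference in the change from 0 h to 8 h was -0.05 (SE 1.02), not past the thresholds, in a contrast with 0.0982% of all rows past them, and 0.72 (SE 1.11) without the 4 libraries. At 2 h KCNE4 was below 1 CPM in 7 of 8 libraries and did not pass the low-count filter for the breed comparison.

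The RASL11B levels of the breeds were apart at 2 h and overlapped at 0 h. At 0 h it measured 3.52, 6.75, 4.47 and 4.87 CPM in Holstein animals 1 to 4. In Angus animals 1 to 4 it measured 3.91, 4.12, 7.39 and 4.64 CPM at 0 h. Over 0 h libraries the log2 fold change between breeds was -0.03 (SE 0.278), or -0.37 (SE 0.365) without the 4 libraries. At 2 h the levels were 2.13, 1.93, 1.40 and 1.56 CPM in Holstein animals 1 to 4. They were 5.36, 5.29, 5.10 and 6.48 CPM in Angus animals 1 to 4. The lowest Angus culture was thus above the highest Holstein culture, and all 4 Holstein cultures were below all of the 0 h levels of their breed.

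In Holstein RASL11B fell to 28.6 to 60.6% of the own 0 h level (38.1 ± 15.0%, SD, n = 4), lower in 4 of 4 cultures. In Angus it was at 69.1 to 140% (119 ± 33.3%, SD, n = 4), higher in 3 of 4 cultures, and Angus 3, the exception at 69.1%, has 1 of the 4 libraries with the other COL1A1 counting at 2 h. Without those libraries the ranges were 31.3 to 60.6% in 2 Holstein and 128 to 137% in 2 Angus animals. Over the breeds combined the fitted log2 fold change at 2 h was -0.45 (SE 0.319), and likewise -0.45 (SE 0.414) without the 4 libraries, so the combined value describes neither breed.

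RASL11B had returned by 8 h in Holstein and stood above its starting level in Angus. It measured 5.36, 5.26, 2.94 and 6.02 CPM in Holstein animals 1 to 4, with 2 cultures above and 2 below their own 0 h level (65.8 to 152%). It measured 6.33, 6.90, 14.1 and 5.43 CPM in Angus animals 1 to 4, and all 4 were above their own 0 h level (117 to 191%). Angus 3 stood far above the other cultures at 8 h. The 8 h libraries had no part in choosing the gene, so the breeds were tested there. They came from the same animals, whose deviations at 2 h and 8 h correlated at 0.611 on average. The 8 h tests of RASL11B and MTSS1 are thus not independent of the choice. The log2 fold change was -0.74 (SE 0.343, edgeR FDR = 0.127), and the exact permutation test gave p = 0.0571 (adjusted over the 3 genes, 0.0857) for a difference in mean log2(CPM + 1) of -0.587 (pooled SD 0.468, n = 4 per breed). A lower level of RASL11B in Holstein at 8 h thus did not pass the correction, and without Angus 3 the difference in mean log2(CPM + 1) was -0.320 (exact permutation p = 0.171).

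MTSS1 was higher at 2 h than at 0 h in the 4 Angus cultures, while the Holstein cultures were at or below their 0 h level. At 0 h it was close to the limit of the count filter, at 0.734, 1.95, 1.00 and 1.26 CPM in Holstein animals 1 to 4. In Angus animals 1 to 4 it was at 1.40, 2.08, 2.18 and 1.89 CPM. At 2 h it was at 0.710, 0.858, 0.849 and 1.14 CPM in Holstein animals 1 to 4. The 2 h level was 4.45, 4.08, 3.44 and 3.67 CPM in Angus animals 1 to 4, above every library at 0 h and every Holstein library at 2 h. In Holstein 3 of 4 cultures were at 84.7 to 96.8% of the own 0 h level, each with a 95% counting interval that spans 100%, and Holstein 2, whose 0 h library is 1 of the 4 with the other COL1A1 counting, kept 44.1%. In Angus the level rose to 158 to 317% of the own 0 h level (216 ± 69.6%, SD, n = 4).

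**Figure D3:**
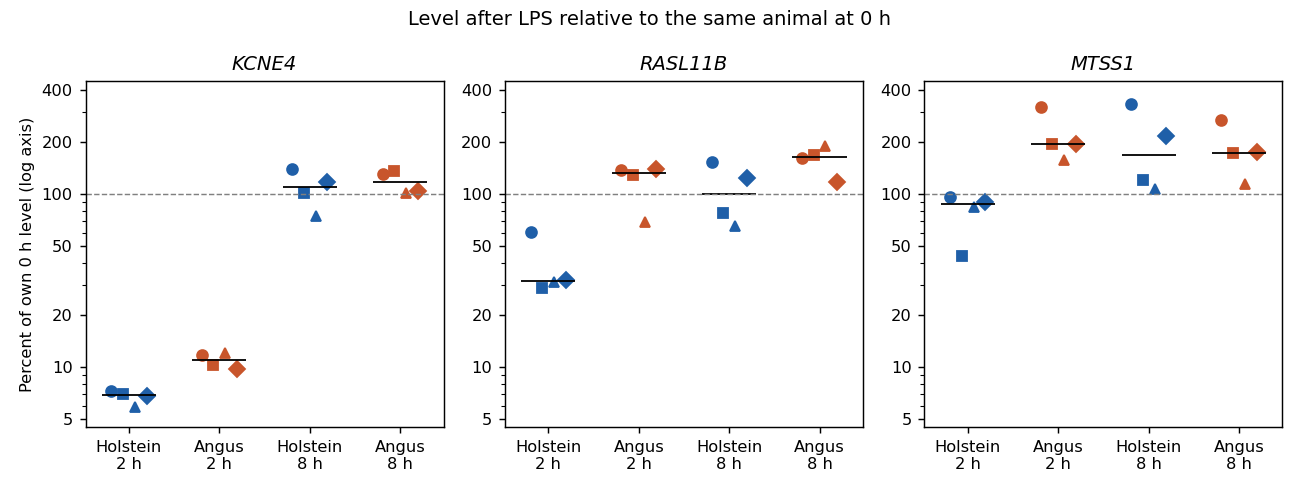
Level at 2 h and 8 h as a percent of the 0 h level of the same animal (log axis), with 1 symbol per animal (circle, square, triangle and diamond for animals 1 to 4), a black bar at the median of each group of 4 and a dashed line at 100%. At 2 h the breeds do not overlap for any of the 3 genes, with KCNE4 at 5.92 to 7.26% in Holstein and 9.78 to 12.1% in Angus, and at 8 h they overlap for all 3. The breed difference in the 2 h change chose RASL11B and MTSS1, and the KCNE4 gap was seen before it was measured. The share of all rows without overlap was not counted.

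By 8 h MTSS1 was above its own 0 h level in all 8 cultures. It measured 2.42, 2.34, 1.08 and 2.73 CPM in Holstein animals 1 to 4 (108 to 329% of 0 h). It measured 3.75, 3.59, 2.51 and 3.31 CPM in Angus animals 1 to 4 (115 to 268% of 0 h). The Holstein cultures had thus risen from 2 h to 8 h by 1.27-fold to 3.40-fold, while the Angus cultures were at 0.729 to 0.901 times their 2 h level. The fitted log2 fold change from 0 h to 8 h over both breeds was 0.79 (SE 0.255), or 0.88 (SE 0.310) without the 4 libraries. The breed difference in that change was -0.002 (SE 0.430), or 0.50 (SE 0.465) without the 4 libraries. At 8 h Holstein and Angus differed by -0.61 on the log2 scale (SE 0.290, edgeR FDR = 0.136), with an exact permutation p = 0.0571 (adjusted over the 3 genes, 0.0857) for a difference in mean log2(CPM + 1) of -0.475 (pooled SD 0.303, n = 4 per breed). Without Holstein 3 that difference was -0.288 (exact permutation p = 0.0857, adjusted 0.257). A fit with the animal number as a block gave an FDR of 0.0454, for a difference still under 2-fold, but equal numbers in the breeds do not mark related animals.

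At 2 h the fitted breed differences in level were -1.67 (SE 0.200) for RASL11B and -2.14 (SE 0.211) for MTSS1, Holstein minus Angus. Both genes were past the thresholds in the lower direction, as were 2.02% of the 20184 rows fitted at 2 h. The breed difference in the change from 0 h was -1.62 (SE 0.341) for RASL11B and -1.51 (SE 0.368) for MTSS1, and both were among the 0.0843% of rows past the thresholds in the lower direction for this contrast, which chose them. Neither gene passed the thresholds for the difference in change under the quasi-likelihood F test, nor without the 4 libraries, where the values were -1.35 (SE 0.407) and -1.09 (SE 0.375). MTSS1 also did not pass when Holstein 2 (-1.17), Angus 1 (-1.33), Angus 2 (-1.55) or Angus 4 (-1.55) was left out.

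**Figure D4:**
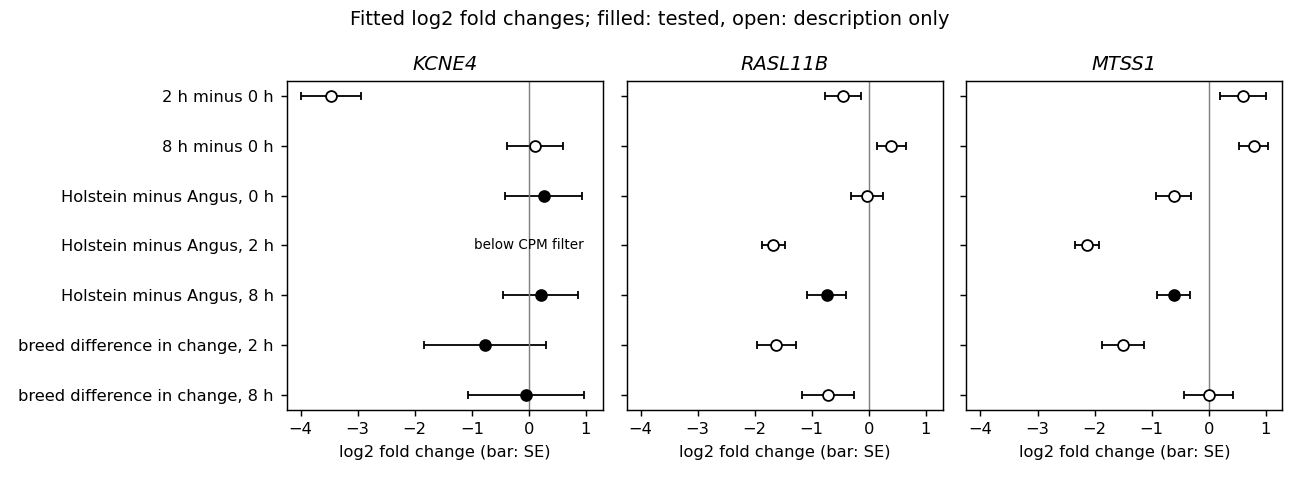
Fitted log2 fold changes of the 3 genes in the 7 comparisons with their standard errors. Open points are descriptions, since the contrast or its 0 h libraries entered the choice of the gene. Of the filled points, only the 8 h breed comparisons used no library that chose the gene. The filled KCNE4 points for 0 h and for the changes share libraries with the contrast that chose it and are read as descriptions. KCNE4 stands out at -3.47 for 2 h minus 0 h, and RASL11B and MTSS1 lie at -1.67 and -2.14 for Holstein minus Angus at 2 h.

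Markers of other cell types were compared beside these breed differences. At 2 h the summed fibroblast markers were at 70700 to 85800 CPM in Holstein and 43300 to 88400 CPM in Angus, smooth muscle and pericyte markers at 6180 to 7450 and 4540 to 7000 CPM, and keratinocyte markers at 0.681 to 11.4 and 0.513 to 0.719 CPM. The endothelial sums at 2 h did not overlap, at 3.16 to 4.70 CPM in Holstein compared to 2.08 to 2.94 CPM in Angus. At 0 h the sums of fibroblast, smooth muscle and pericyte, and leukocyte markers did not overlap between breeds, the last lower in Holstein. The fibroblast sums include COL1A1, which the 4 libraries at 0 h and 2 h counted differently. These sums were not recomputed without them. At 8 h the fibroblast sums did not overlap, at 61700 to 79100 CPM in Holstein and 37900 to 59000 CPM in Angus, nor did the endothelial sums, at 3.53 to 5.21 and 2.63 to 3.26 CPM, or the keratinocyte sums, at 0.740 to 13.8 and 0.446 to 0.737 CPM. Of the endothelial markers, VWF and TEK were detected and PECAM1 and CDH5 were below the count filter. All 6 keratinocyte markers were below the filter, and KRT1 was at 0 in all libraries. The part of these markers in the results on KCNE4, RASL11B and MTSS1 was not tested.

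The rows beside the 3 genes were examined next. The gene-free interval before KCNE4 (chromosome 2, 111821113 to 111987823) was at 73.9 to 139.8 CPM and changed at 2 h by 0.42 on the log2 scale (SE 0.0863, edgeR FDR = 2.1e-05), under 2-fold. The interval after it (chromosome 2, 111991014 to 112549868) changed by -0.01 (SE 0.176, FDR = 0.984). The intervals on either side of RASL11B (chromosome 6, 70056927 to 70179363 and 70183824 to 70187885) were at 0.378 to 4.80 CPM and 0 to 0.135 CPM, and the interval before MTSS1 (chromosome 14, 16783576 to 16971032) was at 0.210 to 0.738 CPM. None of these 3 passed the count filter at 2 h. The deposited mean read depth over each gene, scaled to the library, gave shares at 2 h like those of the counts, 6.32 to 7.36% of the own 0 h depth for KCNE4 in Holstein and 10.5 to 12.5% in Angus, although depth and counts come from the same reads.

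The other potassium channel genes were counted next. Of 90 other rows with a KCN symbol, 21 passed the count filter for the 2 h comparison, of which 2 rose, 1 fell and 18 did not pass the thresholds, compared to 2.82% of all rows past them, with a median log2 fold change of 0.03 compared to -0.004 over all rows. KCNN4, a calcium-activated channel, rose by 3.31 (SE 0.443), with Holstein means of 0.155 ± 0.0549 CPM before and 2.40 ± 0.808 CPM after LPS and Angus means of 0.419 ± 0.423 and 3.42 ± 1.30 CPM (mean ± SD, n = 4). It passed the count filter through its 2 h libraries, at 1.2 to 4.88 CPM compared to 0.0872 to 1.03 CPM at 0 h. Its rise is therefore given with no test. KCNK6, a background (leak) channel, rose by 1.50 (SE 0.349, edgeR FDR = 0.000307). KCNJ2, an inward rectifier that helps to set the resting potential, fell by 1.35 on the log2 scale (SE 0.178, FDR = 3.2e-12), where Holstein cultures went from 2.34 ± 0.338 to 1.00 ± 0.245 CPM, and Angus cultures from 3.26 ± 0.442 to 1.21 ± 0.322 CPM. At 8 h, when 1.42% of all rows were past the thresholds, 0 of the 21 were, by the likelihood-ratio test, the F test or DESeq2. At an unadjusted p under 0.05 were 5 of them, compared to 5026 of all 20368 rows. KCNJ2, like KCNE4, was above its 0 h mean at 8 h, at 3.54 ± 0.602 CPM in Holstein, with an Angus mean of 3.95 ± 0.913 CPM. The fall and return of KCNE4 was thus shared in direction by KCNJ2 and not by KCNN4 or KCNK6.

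Few reads were found for the other KCNE genes. KCNE1, KCNE2 and KCNE3 had at most 1, 3 and 4 reads in any library, at or near the floor of 3 counts. KCNE1L reached 2.01 CPM, and it averaged 0.306 ± 0.186, 1.04 ± 0.618 and 1.50 ± 0.608 CPM at 0, 2 and 8 h in Holstein, with Angus averages of 0.103 ± 0.121, 0.284 ± 0.321 and 0.335 ± 0.405 CPM, where some libraries held 0 reads. It did not pass the count filter, and it shows no dip at 2 h in these means. Among the 7 pore subunits listed as known partners of KCNE4, 3 passed the filter at 2 h, with a median log2 fold change of 0.25 compared to -0.004 over all rows. By the likelihood-ratio test, the F test and DESeq2, 0 of the 3 were past the thresholds, and 0 were at an unadjusted p under 0.05, while KCNA3 had at most 1 read in any library. Over all rows, 2.82% were past the thresholds and 6128 of 20157 were at an unadjusted p under 0.05.

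At 8 h 23 of the other KCN rows were tested between breeds. KCNK6 and KCNC4 were higher in Holstein, by 1.26 (SE 0.201, edgeR FDR = 1.4e-07) and 1.10 (SE 0.266), and the KCNC4 call ended without Holstein 1 (0.98, under 2-fold). For KCNC4 the Holstein libraries alone met the count filter, at 1.16 to 2.01 CPM compared to 0.625 to 1.02 CPM in Angus. The KCNC4 value is therefore given with no test. KCNG1 and KCNN4 were lower in Holstein, with log2 fold changes of -3.25 (SE 0.575) and -1.44 (SE 0.469). KCNG1 passed the count filter through the Angus libraries alone, at 1.13 to 6.87 CPM compared to 0.174 to 0.419 CPM in Holstein. Its value is therefore given with no test. For KCNN4 too the Angus libraries alone met the filter, at 1.25 to 3.05 CPM compared to 0.392 to 1.41 CPM in Holstein. The KCNN4 value is likewise given with no test. KCNN4 was not past the thresholds under the quasi-likelihood F test or when Holstein 2, 3 or 4 or Angus 1 or 4 was left out. Over all rows, 3.25% were past the thresholds between breeds at 8 h, and the other 19 KCN rows were not.

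Of 16 other RAS-like GTPase rows, 7 passed the filter for the 2 h comparison, and 1 of them, RASL12, was past the thresholds (2.82% of all rows were), rising by 1.34 (SE 0.170, edgeR FDR = 4.2e-13) where Holstein cultures went from 6.44 ± 1.32 to 15.4 ± 4.17 CPM, and Angus cultures from 6.77 ± 2.17 to 18.2 ± 2.46 CPM. The median of the 7 was 0.23. DIRAS3, an imprinted growth-restraining GTPase in humans, was lower in Holstein with log2 fold changes of -2.21 (SE 0.340) at 0 h and -2.21 (SE 0.337) at 2 h. It passed the count filter through the Angus libraries alone, so these values are given with no test. Its levels were 0.242 to 0.600 CPM in Holstein and 1.60 to 2.69 CPM in Angus at 0 h. At 2 h they were 0.376 to 0.766 and 1.70 to 3.64 CPM. For the breed difference in the change at 2 h, 0 of the 7 were past the thresholds by any of the 3 tools, and 1 was at an unadjusted p under 0.05. Of all 20157 rows, 56 were past the thresholds and 885 at an unadjusted p under 0.05.

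MTSS1L, the closest relative of MTSS1, was at 54.3 to 141.3 CPM. It did not differ between 0 h and 2 h beyond its error (log2 fold change -0.09, SE 0.118, edgeR FDR = 0.71), and at 8 h its log2 fold change was -0.64 (SE 0.133, FDR = 5.1e-05), under 2-fold. BAIAP2, another I-BAR protein that acts on the actin cytoskeleton, rose at 2 h by 1.19 (SE 0.148, FDR = 1.5e-13), where Holstein cultures went from 22.6 ± 3.46 to 57.1 ± 10.8 CPM, and Angus cultures from 23.4 ± 6.44 to 48.2 ± 10.1 CPM. Of 19 tested rows for other BAR-domain proteins and 26 for cortactin, WASP and Arp2/3 actin regulators, 0 were past the thresholds at 2 h or 8 h by any of the 3 tools. Over all rows, 2.82% were past them at 2 h and 1.42% at 8 h. At an unadjusted p under 0.05 were 10 of the 19 and 8 of the 26 at 2 h, and 8 and 6 at 8 h. Of all rows, 6128 of 20157 were so at 2 h and 5026 of 20368 at 8 h. The formin DIAPH3 was lower in Holstein at 0 h (-1.10, SE 0.276, FDR = 0.00205) and 2 h (-1.05, SE 0.271, FDR = 0.00204), a call that ended without the 4 libraries at 0 h and without Holstein 4, Angus 1 or Angus 4 at both hours.

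Of 12 tested Hedgehog pathway rows, GLI2, a transcription factor of the pathway, fell at 2 h by 1.08 on the log2 scale (SE 0.244, edgeR FDR = 0.00014), and the other 11 were not past the thresholds, which 2.82% of all rows passed. Between breeds, GLI1 and GAS1 were past them at 0 h and 2 h, compared to 3.83% of all rows at 0 h and, in the lower direction, 2.02% at 2 h. GLI1, a target gene and reporter of the pathway, was lower in Holstein at all hours, with log2 fold changes of -1.45 (SE 0.379) at 0 h, -2.17 (SE 0.382) at 2 h and -1.53 (SE 0.374) at 8 h. The Angus libraries alone met the count filter at 0, 2 and 8 h, at 2.2 to 4.8, 1.82 to 6.60 and 1.20 to 4.29 CPM. Holstein was at 0.573 to 1.74, 0.705 to 1.20 and 0.622 to 1.10 CPM, so the GLI1 values are given with no test. GLI1 averaged 0.932 ± 0.207 CPM in Holstein and 4.17 ± 2.01 CPM in Angus at 2 h (mean ± SD, n = 4), and at 0 h the call ended without the 4 libraries (-0.82). GAS1, a Hedgehog co-receptor, was also lower in Holstein at 0 h (-1.10, SE 0.290, FDR = 0.00353) and 2 h (-1.03, SE 0.270, FDR = 0.0023). The GAS1 call ended at 0 h without the 4 libraries (-1.08, FDR = 0.101), Holstein 3 or Angus 4, and at 2 h without Holstein 2, Holstein 3, Angus 1 or Angus 4. For MTSS1 the breed difference was -0.61 (SE 0.314) at 0 h, or -1.12 (SE 0.345) without the 4 libraries, and -2.14 at 2 h. For the breed difference in the change at 2 h, 0 of the 12 were past the thresholds by any of the 3 tools, and 0 were at an unadjusted p under 0.05. Of all 20157 rows, 56 were past the thresholds and 885 at an unadjusted p under 0.05.

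The transcripts most like KCNE4 over the 24 libraries, by Pearson's r of log2(CPM + 1) among 12957 rows, were PHF21A (r = 0.941), ARID5B (0.907), TRIM23 (0.899), NUDT13 (0.891) and PHF17 (0.885). ARID5B, a DNA-binding chromatin factor, averaged 43.7, 18.6 and 41.7 CPM at 0, 2 and 8 h in Holstein, and its Angus averages were 41.7, 18.0 and 34.9 CPM. It thus kept more of its level at 2 h than KCNE4 did. PHF21A, a histone-reading protein, went from 16.6 to 10.8 and back to 14.8 CPM in Holstein.

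For RASL11B the likest rows were SGK1 (r = 0.794), the CCDC115 row of chromosome 20 (0.777), OSR2 (0.762), INTS9 (0.756) and NFXL1 (0.754). SGK1, a serum- and glucocorticoid-induced kinase, averaged 88.9, 30.6 and 83.4 CPM at 0, 2 and 8 h in Holstein and 116, 78.1 and 91.1 CPM in Angus. OSR2, a zinc-finger transcription factor, averaged 4.85, 2.47 and 4.22 CPM in Holstein, and its Angus averages were 6.02, 5.22 and 5.61 CPM. Both means were lower at 2 h in both breeds, and the Holstein mean was the lower of the breeds at each hour.

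For MTSS1 the likest rows were ZC3H8 (r = 0.881), GLA (0.859), ZMAT2 (0.847), SUPV3L1 (0.831) and NOL6 (0.830). NOL6, a nucleolar protein of ribosome assembly, averaged 22.0, 22.6 and 28.9 CPM at 0, 2 and 8 h in Holstein and 29.1, 37.5 and 36.7 CPM in Angus. These correlations are over libraries that share animals, hours and breeds, and they are descriptions with no test.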

How the data were processed

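Total RNA from 8 fibroblast cultures, each at 3 hours (24 samples), was sequenced as unstranded poly-A libraries. The authors aligned quality-filtered reads to the UMD v3.1 bovine genome with NextGENe 2.3.4 and deposited raw read counts per annotated gene or gene-free interval, and base calling used CASAVA 1.7 per the labels. The deposited files also give read coverage (lowest, highest and mean depth) per row. A read may be credited to more than 1 row. Counts were scaled by TMM and fitted in edgeR 4.0.16 (R 4.3.3) with the study's own design: rows at 1 CPM or more in at least 50% of the samples compared, a likelihood-ratio test, Benjamini-Hochberg FDR over all rows, and calls at an FDR under 0.05, a fold change of 2 or more and an average above 1 CPM. Levels at 8 h were also compared by exact permutation of animals. Columns of other samples were not found. The fits were tested on simulated data.

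Samples of the same animal share a culture: their deviations from the group means correlated at 0.432 or more across hours, and the block fits treat them as pairs. Equal numbers in the 2 breeds correlated at -0.112 to -0.0796 on average and do not pair animals. No library pair was a duplicate (chi-square per degree of freedom 33.0 or more in 36 pairs).

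The genes and the lists compared with them were chosen with earlier results of these data known. Named were the 3 genes, their neighbouring rows, list members past the thresholds, the closest relatives and the 5 rows most correlated with each gene. Alternatives were the quasi-likelihood F test, DESeq2 1.42.0, other scaling, no filter, the replicate block, breed as a covariate, and leaving out animals or the 4 libraries.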

Additional observations from a re-analysis of the deposited data

Results flagged for a closer look

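Of 18 groups of 4 cultures examined (3 genes, 2 breeds and 3 hours), 2 held a culture far from the other 3 by Dixon's criterion, a rate that chance gives in about 1 of 20 groups. Both were Angus 3. KCNE4 in Angus 3 at 2 h was 1.94 CPM, compared to 0.107 to 0.418 CPM in the other Angus cultures, and the same animal was the highest at 0 h and 8 h. Its 2 h library is 1 of the 4 with the other COL1A1 counting. RASL11B in Angus 3 at 8 h was 14.1 CPM, compared to 5.43 to 6.90 CPM in the others, in a library counted like the majority.

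The KCNE4 change from 0 h to 2 h stood apart between breeds when each animal was set against itself, by -0.695 in mean log2 ratio (Holstein minus Angus, lower in 4 of 4 Holstein than in any Angus culture, n = 4 per breed). In the fit across all rows with the replicate block the difference was -0.73, under 2-fold. Without the block and the 4 libraries it turned to 1.30, in a fit whose 0 h and 2 h libraries came from partly different animals. The 2 h counts behind the difference were 10 to 158 reads in Angus and 26 to 50 reads in Holstein.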

How the results depend on the processing

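Of 491 recomputed main values and counts, 461 kept their direction, their side of the threshold or their size. For KCNE4, the filter lifted together with leaving out the 4 libraries (chosen after seeing the data) gave -4.08 for 2 h, and the breed difference in change at 2 h reversed from -0.77 to 1.30. Both fits held partly different animals at 0 h and 2 h. Without the 4 libraries the KCNE4 breed difference was -0.51 at 0 h, its difference in change at 8 h 0.72, the MTSS1 breed difference at 0 h -1.12, and the difference in the KCNE4 fall -0.746 with 2 animals per breed. Leaving out 1 animal moved the KCNE4 breed difference from -0.0907 to 1.46 at 0 h and from -0.15 to 1.16 at 8 h, and the difference in change at 8 h from -0.30 to 0.0489. With 0.1 in place of 1 CPM as the pseudocount, the mean KCNE4 log2 change at 2 h was -3.62 in Holstein and -2.82 in Angus, compared to -2.41 and -1.70, since 1 CPM exceeds most 2 h levels. Rows past the thresholds at 0 h between breeds numbered 781, or 259 without the 4 libraries and 515 to 1119 without 1 animal, and at 8 h 673, or 446 to 1133. For the breed difference in change they numbered 56 at 2 h (16 by the F test, 126 with the animal as a replicate block, 33 to 81 without 1 animal) and 20 at 8 h (0 by the F test, with 756 at an unadjusted p under 0.05, 100 with the block, 6 without the 4 libraries, 2 to 62 without 1 animal). Total-count scaling moved the median difference in change at 2 h over all rows to 0.11. The replicate block changed no call on the 3 genes by all thresholds together, and it brought the FDR of MTSS1 between breeds at 8 h under 0.05. Of 366 recomputed values of the other genes named from the lists, 27 lost their call and none changed direction. The cause of these shifts was not tested, other than the fewer samples that a left-out animal or library leaves. Depth limits KCNE4 at 2 h most, where counts were 10 to 158.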
